A study of Mus musculus with 16 samples.

Results

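Double-negative regulatory T cells (Treg), sorted without surface CD103 or ICOS and titled CD103neg ICOSneg in the labels, were measured on 4 of the 16 arrays of the series. The 4 arrays were taken by sample title and hold 2 arrays of activated cells and 2 arrays of fresh cells. Activated cells came from a suppression assay of 3 days, in which 200000 double-negative Treg were kept with 1000000 naive CD4 T cells carrying the congenic marker Ly5.1, 2000000 irradiated Rag2-/- splenocytes and soluble anti-CD3 at 0.5 ug/ml. They were then recovered by a second sort as CD4- and CD25-positive cells without Ly5.1. Fresh cells gave RNA directly after the first sort. Both groups came from pooled lymph nodes of wild type female C57BL/6 mice 8 to 12 weeks old, and 270 ng of total RNA went into the labelling for each array. The labels call the 2 arrays of a group biological replicates. The other 12 arrays hold Treg with CD103 alone (CD103 single-positive), with ICOS alone (ICOS single-positive) or with both (double-positive), each activated and fresh with n = 2. Culture, anti-CD3, the other cells of the well and the second sort came together, so their parts in a difference cannot be told apart.

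Treg are CD4 T cells that restrain other T cells and depend on the transcription factor Foxp3. A resting Treg circulates through lymphoid organs under the quiescence factors Foxo1 and Klf2, and divides little. Signals through the T cell receptor, costimulation and IL-2 bring T cells into growth, glycolysis, lipid synthesis and division. They can also turn a resting Treg into an effector Treg, which carries receptors such as ICOS and KLRG1 and enters tissues. In a suppression assay the Treg receive the same anti-CD3 stimulus as the naive cells they are mixed with.

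The 4 arrays were close in overall signal, with medians over all probe sets of 6.37 and 6.32 in activated cells and 6.46 and 6.47 in fresh cells, on the log2 intensity scale of all levels below. Foxp3 stood at 12.30 and 11.69 in activated cells and at 12.56 and 12.16 in fresh cells. Il2ra, which encodes CD25, stood at 12.91 and 13.13 in activated cells and at 12.58 and 12.53 in fresh cells. Itgae, which encodes CD103, was low in both groups, at 7.31 and 7.95 in activated cells and 7.81 and 7.25 in fresh cells, where fresh double-positive cells had 12.33 and 12.37. The activated arrays were more than 2-fold apart for 413 genes and the fresh arrays for 131. Outside the 4 arrays, the array labelled activated ICOS single-positive replicate 2 had Foxp3 at 8.53, and it widens the spread that all groups share in the test. Where a count of gene list members moves by more than 1.5 times without it, both counts are given.

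Activated double-negative Treg differed from fresh ones across a large part of the genome. Of 19938 genes tested, 1725 were higher in activated cells (8.65%) and 1513 were lower (7.59%), 3238 in all (16.2%), by limma with Benjamini-Hochberg adjusted p below 0.05 over all genes. Below, a gene is said to have risen or fallen only where it passed this test. Differences are activated minus fresh, in log2 units. With quantile normalization applied again, 1657 were higher and 1997 lower, so which direction held more genes depended on the normalization. By size, 898 genes rose and 535 fell more than 2-fold, and 145 rose and 17 fell more than 8-fold. For each of the 3238 genes the sign held within either replicate number. The calls used these same arrays, so this is a description and no added support. The median difference of all genes was -0.06. The count was 2062 without activated replicate 2 and 2097 without fresh replicate 1, and 1962 when the 4 arrays were fitted alone. Of the 140 genes named by rule for this comparison, 28 lost their call in the fit of the 4 arrays alone. In whole samples such as these, fewer cells of a type and less RNA per cell cannot be told apart.

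**Figure D1:**
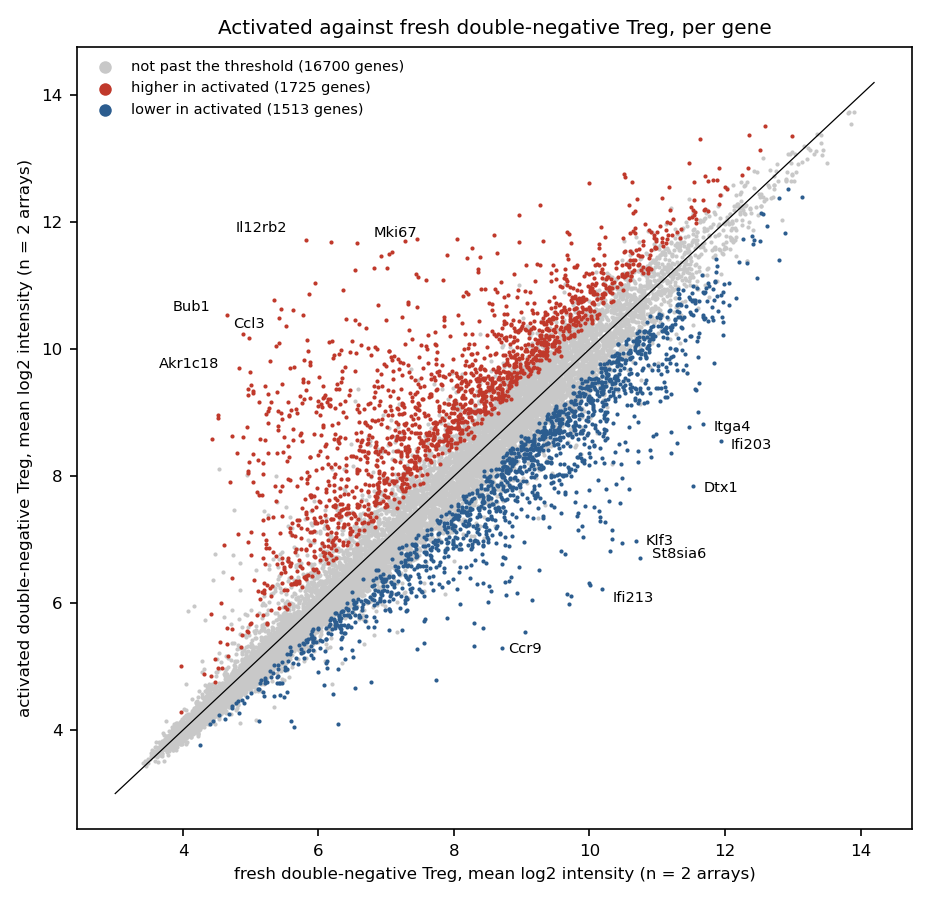
Mean log2 intensity of 19938 genes in activated (vertical axis) against fresh (horizontal axis) double-negative Treg, n = 2 arrays each, with the line of equality in black. Red points are the 1725 genes that rose and blue points the 1513 that fell; the red points reach farther from the line than the blue ones.

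The largest increase over all 4 arrays was that of Il12rb2, the signalling chain of the IL-12 receptor. It stood at 10.85 and 12.58 in activated cells, against 5.72 and 5.91 in fresh cells (log2 difference 5.90 on probe set 10545135, SE 0.50, 59.7-fold, adjusted p = 1.73e-05). The difference was 6.76 without activated replicate 1 and 5.04 without activated replicate 2, where Bub1 at 6.00 was larger. Bub1, a kinase of the spindle checkpoint, came next with 10.64 and 10.42 in activated cells and 5.08 and 4.21 in fresh cells (log2 difference 5.89 on probe set 10487480, SE 0.28, adjusted p = 1.93e-07). Cyp11a1, the enzyme that makes pregnenolone from cholesterol, had 9.49 and 10.85 in activated cells and 5.10 and 4.85 in fresh cells (log2 difference 5.20 on probe set 10585794, SE 0.51, adjusted p = 5.51e-05), or 5.88 without activated replicate 1 and 4.51 without activated replicate 2. Ak4, a mitochondrial adenylate kinase, had 10.59 and 10.64 in activated cells and 5.73 and 5.51 in fresh cells (log2 difference 4.99 on probe set 10472923, SE 0.49, adjusted p = 5.51e-05). With all probe sets of a gene averaged, the Ak4 difference was 3.01. For these 4 genes both activated arrays stood far above both fresh arrays, with the activated arrays closest to each other for Ak4.

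Several of the other large increases depended on the activated array. Ccl3, a chemokine that attracts monocytes and T cells, had 8.96 and 12.03 in activated cells and 5.45 and 5.37 in fresh cells (log2 difference 5.08 on probe set 10389231, SE 0.98, adjusted p = 0.00455), or 6.62 without activated replicate 1 and 3.54 without activated replicate 2. It lost its call when the 4 arrays were fitted alone. Akr1c18, which inactivates progesterone, had 8.91 and 10.49 in activated cells and 4.87 and 4.77 in fresh cells (log2 difference 4.88 on probe set 10407435, SE 0.96, adjusted p = 0.00511), and its call was lost without activated replicate 2 (log2 difference 4.09, adjusted p = 0.0501). Lilr4b and Lilrb4a, neighbouring and closely similar immunoglobulin-like receptor genes whose probes may share signal, rose by 5.01 and 4.84. Without activated replicate 2 these differences were 3.88 and 3.80. In all 4 genes replicate 2 was the higher activated array.

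The largest decrease was that of St8sia6, a sialyltransferase. It stood at 7.32 and 6.10 in activated cells, against 10.78 and 10.70 in fresh cells (log2 difference -4.03 on probe set 10480238, SE 0.35, 16.4-fold lower, adjusted p = 1.81e-05), or -3.42 without activated replicate 2. H2-Ob, a chain of the class II peptide-loading modulator, had 6.44 and 6.12 in activated cells and 10.20 and 9.81 in fresh cells (log2 difference -3.72 on probe set 10444284, SE 0.50, adjusted p = 0.000502). Dtx1, a ubiquitin ligase of the Notch pathway, had 7.97 and 7.72 in activated cells and 11.68 and 11.38 in fresh cells (log2 difference -3.69 on probe set 10533182, SE 0.19, adjusted p = 3.61e-07). Cd7, a T cell surface protein, fell by 3.54, Prg4, which encodes a lubricating proteoglycan, by 3.42, and Slfn5, a member of the Schlafen family, by 3.31. The Cd7 difference was -4.40 without activated replicate 1 and -2.67 without activated replicate 2. Genes of the Ifi200 family made up 5 of the 15 largest decreases and are described with the interferon genes.

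**Figure D2:**
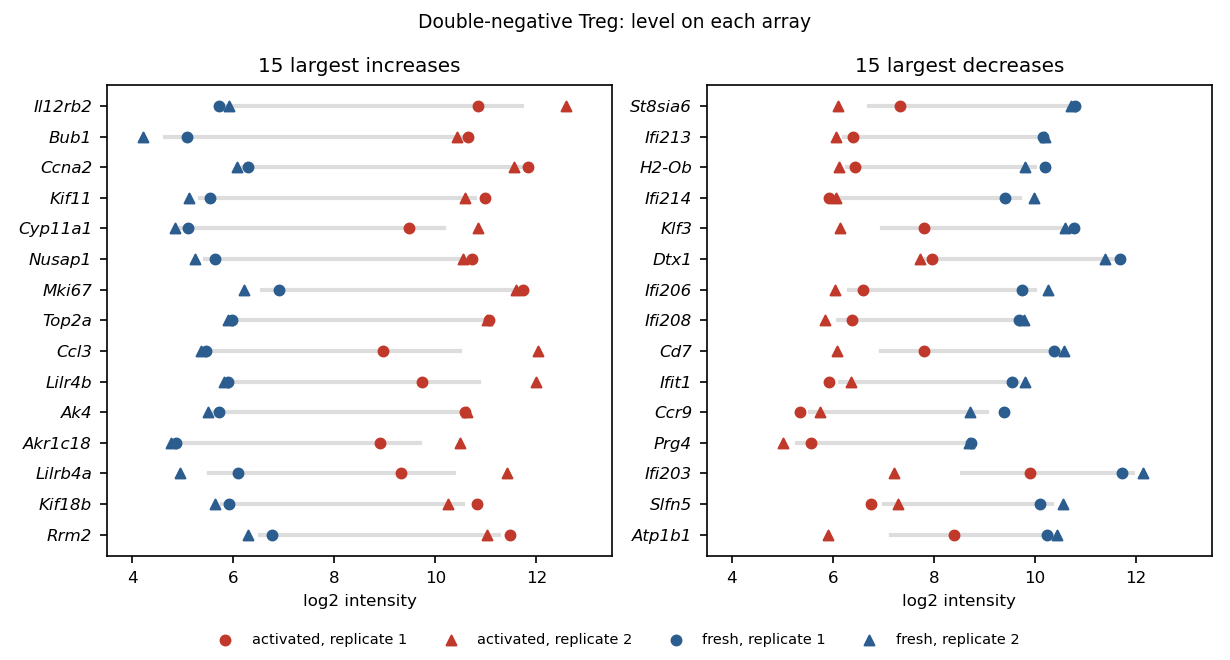
Log2 intensity on each of the 4 arrays for the 15 largest increases (left) and the 15 largest decreases (right), with activated cells in red, fresh cells in blue, replicate 1 as circles and replicate 2 as triangles; grey lines join the group means. In each row both red points lie on one side of both blue points, and for Ccl3 and Ifi203 the red points are far apart.

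Division genes gave the broadest increase. All 34 measured mitosis genes rose and 0 fell, with a median difference of 4.07, beside the 8.65% of all genes that rose. Their median level was 10.11 and 9.75 on the activated arrays and 6.00 and 5.91 on the fresh arrays. Mki67, the antigen Ki-67 of cycling cells, stood at 11.74 and 11.60 in activated cells, against 6.91 and 6.22 in fresh cells (log2 difference 5.11 on probe set 10568714, SE 0.21, adjusted p = 1e-07). Ccna2, the cyclin of S phase and G2, stood at 11.83 and 11.56 in activated cells, against 6.30 and 6.07 in fresh cells (log2 difference 5.51 on probe set 10497831, SE 0.17, adjusted p = 2.54e-08). Kif11 and Kif18b, motors of the spindle, rose by 5.44 and 4.77, Nusap1, which bundles spindle microtubules, by 5.19, and the topoisomerase Top2a by 5.09, or 3.05 with its probe sets averaged. The smallest increase of the list was that of Ndc80, a kinetochore protein, at 2.28. The whole list kept its calls with any 1 of the 16 arrays left out.

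The promoters of Bub1, Kif11 and Nusap1, the mitosis genes with the largest increases among those in the promoter table, are shown because genes of this list moved together and many of their promoters carry CCAAT boxes and CHR elements, which are known in mammals to bind NF-Y and the DREAM complex. The sequences are RefSeq's for build GRCm38.p6 and run from 250 bases before to 50 bases after the start of the gene, 5′ to 3′ on its strand. Capitals mark the CCAAT box, which reads ATTGG when it lies on the opposite strand. They also mark the CHR core TTTGAA, which reads TTCAAA when it lies on the opposite strand.
Bub1: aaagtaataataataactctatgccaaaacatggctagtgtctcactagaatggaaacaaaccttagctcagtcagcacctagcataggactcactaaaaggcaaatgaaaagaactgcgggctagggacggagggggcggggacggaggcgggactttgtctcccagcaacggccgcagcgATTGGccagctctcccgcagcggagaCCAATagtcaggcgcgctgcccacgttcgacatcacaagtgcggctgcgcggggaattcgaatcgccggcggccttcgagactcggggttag
Kif11: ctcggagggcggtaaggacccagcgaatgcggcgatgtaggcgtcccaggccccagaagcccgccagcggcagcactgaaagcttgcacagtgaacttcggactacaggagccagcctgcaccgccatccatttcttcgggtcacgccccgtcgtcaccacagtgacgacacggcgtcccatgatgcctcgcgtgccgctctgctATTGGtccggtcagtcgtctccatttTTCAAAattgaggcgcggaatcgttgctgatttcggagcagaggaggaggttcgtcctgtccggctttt
Nusap1: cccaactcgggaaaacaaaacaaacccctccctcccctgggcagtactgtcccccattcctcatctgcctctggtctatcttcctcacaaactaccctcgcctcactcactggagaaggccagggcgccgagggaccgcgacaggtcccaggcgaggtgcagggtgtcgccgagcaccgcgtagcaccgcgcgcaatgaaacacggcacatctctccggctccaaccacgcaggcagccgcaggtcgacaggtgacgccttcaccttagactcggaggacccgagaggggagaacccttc
Bub1 lies on the minus strand at chr2:127831810-127832109, Kif11 on the plus strand at chr19:37376132-37376431 and Nusap1 on the plus strand at chr2:119618048-119618347. The Bub1 promoter has 2 CCAAT matches and 0 TTTGAA matches, the Kif11 promoter 1 of each, and the Nusap1 promoter 0 of both. Of the 34 genes 28 matched the promoter table by symbol, with 30 promoters. CCAAT was found on either strand in 76.7% of the 30 and in 37.4% of all 32851 promoters of the same length. TTTGAA was found in 80% of the 30 and in 17.9% of all promoters. The variant TTTAAA, which reads the same on both strands, was found in 20% of the 30 and in 13.2% of all. A CCAAT match together with a match to either CHR form was found in 73.3% of the 30 and in 10.7% of all. Matches of different motifs can overlap by a base and were each counted. A match is a string of letters and was not tested as a binding site.

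The genes that copy DNA rose with the mitosis genes. Of 38 genes of DNA replication and nucleotide supply 36 rose and 0 fell, with a median difference of 1.97. Rrm2, the small subunit of ribonucleotide reductase, stood at 11.49 and 11.02 in activated cells, against 6.77 and 6.29 in fresh cells (log2 difference 4.72 on probe set 10394978, SE 0.24, adjusted p = 2.67e-07). The transcription factor E2f8 rose by 4.67, the polymerase subunit Pole by 3.46 and the replication factor Mcm10 by 3.18. Of 10 G1 cyclins and kinases 5 rose and 0 fell. The E cyclins Ccne2 and Ccne1 rose by 4.20 and 2.56, the phosphatase Cdc25a by 1.66, and the kinases Cdk2 and Cdk4 by 1.34 and 0.67. Of 11 inhibitors 1 rose (9.09%) and 2 fell (18.2%), beside 8.65% and 7.59% of all genes. The INK4 inhibitor Cdkn2c rose by 2.83, while Cdkn1b, which encodes p27, fell by 0.79 and Rb1 fell by 0.54. Without the array that stands apart 3 inhibitors rose, and without activated replicate 1 only 1 fell. The Cdkn1b call was lost with probe sets averaged (adjusted p = 0.103). The Rb1 call was lost with any 1 of the 4 arrays left out (highest adjusted p = 0.128).

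Genes that copy and set chromatin marks were split. Of 14 genes of DNA methylation and Polycomb 7 rose and 2 fell. Uhrf1, which brings the maintenance methyltransferase to newly copied DNA, stood at 10.68 and 10.23 in activated cells, against 6.68 and 6.38 in fresh cells (log2 difference 3.92, SE 0.20, adjusted p = 2.95e-07). The helicase Hells rose by 3.16, Ezh2, the main Polycomb methyltransferase of dividing cells, by 1.93, and Dnmt1 by 1.23. Its relative Ezh1 fell by 1.05, and Tet1, which oxidises methylated cytosine, by 1.52. The Tet1 call was lost with any 1 of the 4 arrays left out, and the count of genes that rose was 4 without activated replicate 1.

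Glycolysis and hypoxia genes rose widely. Of 25 measured 19 rose and 0 fell, with a median difference of 1.68. Bnip3, a mitophagy receptor and HIF target, stood at 11.28 and 11.70 in activated cells, against 6.95 and 7.14 in fresh cells (log2 difference 4.45, SE 0.44, adjusted p = 5.51e-05). Slc16a3, the lactate exporter MCT4, stood at 11.44 and 11.52 in activated cells, against 8.18 and 7.62 in fresh cells (log2 difference 3.58, SE 0.27, adjusted p = 6.23e-06). The hexokinase Hk2 rose by 3.32, and the prolyl hydroxylase Egln3, itself a HIF target, by 3.67 (4.37 without activated replicate 1 and 2.97 without activated replicate 2). The glucose transporter Slc2a1 rose by 1.69, lactate dehydrogenase Ldha by 1.02 and Hif1a by 1.31. Other enzymes of the pathway that rose were Tpi1 at 3.16, Pgam1 at 2.62, Pgk1 at 2.25 and Aldoa at 1.68. The listed genes Gpi1, Gapdh and Eno1 were not measured, and 6 of the 25 did not pass. Fewer rose without activated replicate 2, 15 of 25.

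Lipid synthesis genes rose too. Of 29 sterol and fatty acid synthesis genes 22 rose and 0 fell, with a median difference of 1.25, and 29 of 29 differences were above 0. Fads2, a fatty acid desaturase, stood at 9.91 and 10.34 in activated cells, against 6.89 and 6.11 in fresh cells (log2 difference 3.63, SE 0.36, adjusted p = 5.42e-05). The desaturase Scd1 had 9.47 and 10.37 in activated cells and 6.93 and 5.68 in fresh cells (log2 difference 3.61, SE 0.67, adjusted p = 0.00359), or 4.24 without fresh replicate 1 and 2.99 without fresh replicate 2. Of the sterol branch, Idi1 rose by 2.68, Sqle, which epoxidises squalene, by 1.92, Cyp51 by 1.92 and Hmgcs1 by 1.86. Fasn and Acaca, which make fatty acids, rose by 1.25 and 1.07.

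**Figure D3:**
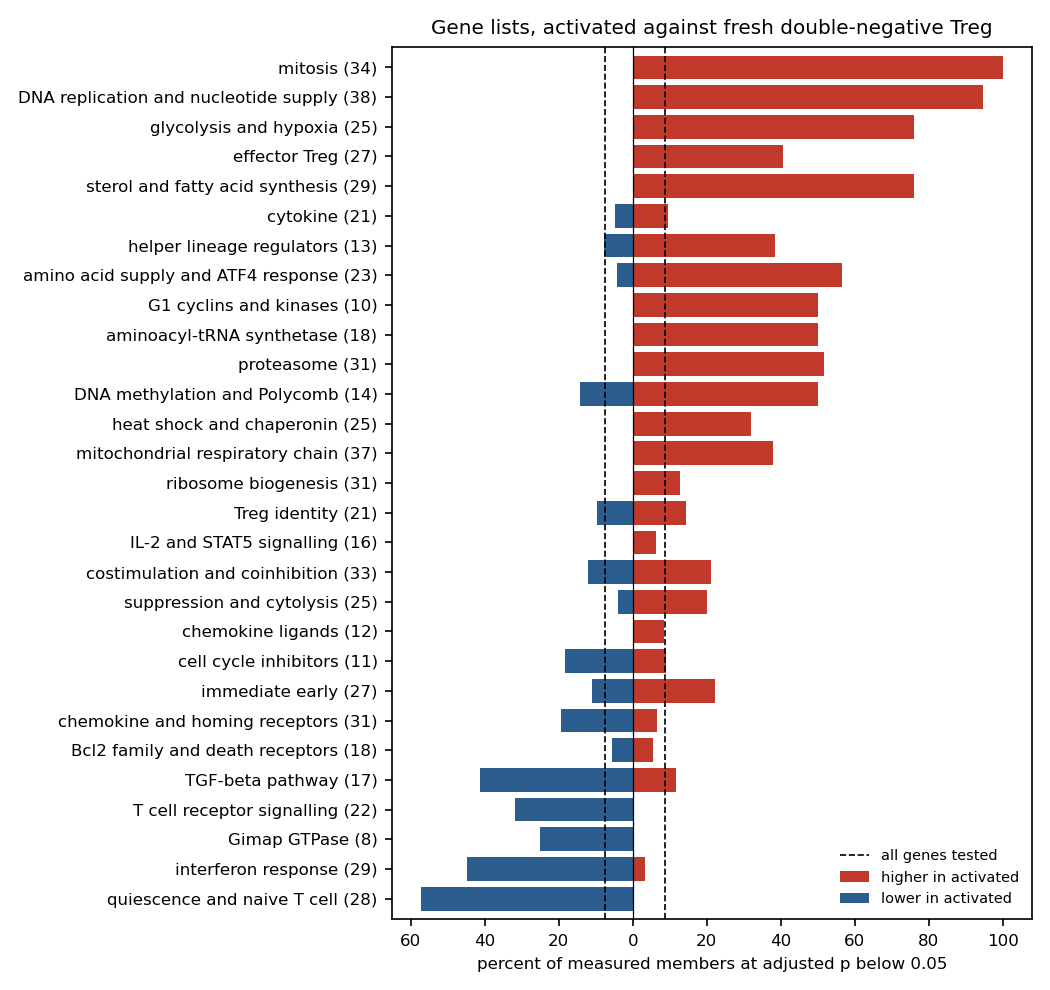
Percent of the measured members of each gene list (number in brackets) that rose (red, to the right) or fell (blue, to the left) in activated against fresh double-negative Treg, with lists ordered by median difference. Dashed lines mark the 8.65% of all genes that rose and the 7.59% that fell; mitosis reaches 100% to the right, and quiescence and naive T cell genes lie at the bottom.

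Amino acid supply and protein handling moved by smaller steps. Of 23 genes of amino acid supply and the ATF4 response 13 rose (56.5%) and 1 fell (4.35%). Among all genes 8.65% rose and 7.59% fell. Asns, asparagine synthetase, stood at 9.92 and 9.89 in activated cells, against 6.38 and 6.08 in fresh cells (log2 difference 3.68, SE 0.30, adjusted p = 1.25e-05). Psat1 and Phgdh of serine synthesis rose by 1.95 and 1.39, and the stress sensor Sesn2 by 1.87. Ddit3, the ATF4 target CHOP, fell by 0.50, a call lost with any 1 of the 4 arrays left out. Of 18 aminoacyl-tRNA synthetases 9 rose, led by Gars at 1.01, and 2 rose without activated replicate 1. Of 31 proteasome genes 16 rose, with Psmc4 and Psmd1 at 0.92 each, and 10 without fresh replicate 1. Of 25 heat shock and chaperonin genes 8 rose, and 3 without activated replicate 1. Sdf2l1, a chaperone cofactor of the endoplasmic reticulum, had the largest increase of that list at 2.26, and the chaperonin subunit Tcp1 rose by 1.27.

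Mitochondrial and ribosome genes moved by small steps as well. Of 37 respiratory chain genes 14 rose and 0 fell, with a median difference of 0.50, and 5 without activated replicate 2. Sdhd, a subunit of complex II, had the largest increase that passed, 1.11, and cytochrome c, Cycs, rose by 0.81. Of 31 ribosome biogenesis genes 4 rose (12.9%, beside 8.65% of all genes) and 0 fell. Their median difference was 0.39, and 28 of 31 differences were above 0. The 4 that rose were Nhp2 at 0.92, Nolc1 at 0.83, Bysl at 0.70 and Nop56 at 0.55. Without activated replicate 1 only 1 of the 31 passed.

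Genes of the resting state fell. Of 28 quiescence and naive T cell genes 16 fell and 0 rose, with a median difference of -1.41, beside the 7.59% of all genes that fell. Klf3, a Kruppel-like factor of resting lymphocytes, stood at 7.80 and 6.14 in activated cells, against 10.76 and 10.60 in fresh cells (log2 difference -3.71 on probe set 10522051, SE 0.44, adjusted p = 0.000203), or -4.54 without activated replicate 1 and -2.88 without activated replicate 2. Tsc22d3, the glucocorticoid-induced leucine zipper, stood at 6.61 and 6.95 in activated cells, against 9.60 and 9.68 in fresh cells (log2 difference -2.86, SE 0.17, adjusted p = 8.46e-07). Rasgrp2, an exchange factor for the integrin activator Rap1, fell by 2.87, Klf2, which keeps S1pr1 and L-selectin expressed, by 2.78, and the PI3K inhibitor Pik3ip1 by 2.45. Atp1b1, a subunit of the sodium pump, fell by 3.18, but its activated arrays stood at 8.40 and 5.91. Its difference was -1.93 without activated replicate 2, and it lost its call when the 4 arrays were fitted alone. Both chains of the IL-6 receptor fell, Il6ra by 2.18 and Il6st by 2.04. Foxo1 fell by 0.62 and Btg1, an antiproliferative factor, by 1.06.

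Receptors for lymph node egress and gut homing were lower. Of 31 chemokine and homing receptors 6 fell (19.4%) and 2 rose (6.45%), beside 7.59% and 8.65% of all genes. S1pr1, the receptor by which T cells leave lymph nodes, stood at 9.78 and 9.16 in activated cells, against 11.57 and 11.66 in fresh cells (log2 difference -2.15, SE 0.17, adjusted p = 7.53e-06). Ccr9, the receptor for the gut chemokine CCL25, stood at 5.35 and 5.74 in activated cells, against 9.39 and 8.71 in fresh cells (log2 difference -3.50 on probe set 10590620, SE 0.44, adjusted p = 0.000299). The integrin chains Itga4 and Itgb7, which pair to bind the gut addressin, fell by 2.86 and 0.90, and the follicle receptor Cxcr5 by 2.12. The 2 that rose were Ccr8, a receptor of skin and tumour Treg, and Ccr4, which binds CCL17 and CCL22. Ccr8 stood at 11.81 and 11.78 in activated cells, against 8.75 and 8.42 in fresh cells (log2 difference 3.21, SE 0.31, adjusted p = 5.11e-05). Ccr4 rose by 2.30, a call lost with any 1 of the 4 arrays left out, and 5 receptors rose without the array that stands apart. Of 12 chemokine ligands Ccl3 alone rose (8.33%, beside 8.65% of all genes). Ccl4, its close relative, differed by 1.56 and did not pass (adjusted p = 0.254).

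Among interferon-stimulated genes more fell than rose. Of 29 measured 13 fell, 1 rose and 15 did not pass, with a median difference of -0.70. Ifit1, which binds viral RNA, stood at 5.92 and 6.36 in activated cells, against 9.53 and 9.80 in fresh cells (log2 difference -3.53 on probe set 10462623, SE 0.42, adjusted p = 0.000197). Ifit3 fell by 3.10, Oasl2, of the oligoadenylate synthetase family, by 2.04, and Irf7, the factor that amplifies type I interferon, by 1.52. Members of the Ifit and Oas families resemble each other, so their probes may share signal. Rtp4 had 7.25 and 5.79 in activated cells and 8.85 and 9.65 in fresh cells (log2 difference -2.73), and its call was lost without activated replicate 2 or fresh replicate 2. The 1 member that rose was Psmb8, a subunit of the immunoproteasome, by 0.43, a call lost without activated replicate 1 or either fresh array.

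The Ifi200 family, neighbouring genes for DNA-binding PYHIN proteins that interferon induces, stood out among the decreases, and its members were gathered after their values were seen. Of 10 measured 6 fell and 0 rose. Ifi213 stood at 6.39 and 6.06 in activated cells, against 10.17 and 10.20 in fresh cells (log2 difference -3.96 on probe set 10360373, SE 0.17, adjusted p = 1.11e-07). Ifi214 stood at 5.91 and 6.06 in activated cells, against 9.41 and 9.98 in fresh cells (log2 difference -3.71 on probe set 10360370, SE 0.48, adjusted p = 0.000357). Ifi206 fell by 3.69, Ifi208 by 3.62, Ifi203 by 3.38 and Ifi209 by 2.84. The Ifi203 arrays stood at 9.89 and 7.21 in activated cells and at 11.72 and 12.14 in fresh cells. Its difference was -4.72 without activated replicate 1 and -2.04 without activated replicate 2, and it lost its call when the 4 arrays were fitted alone. Aim2, the sensor of cytosolic DNA, had 8.78 and 8.15 in activated cells and 9.08 and 9.39 in fresh cells (adjusted p = 0.0674). Ifi207, Ifi202b and Ifi205 were between 4.01 and 5.36 on all 4 arrays. These genes are near-copies of each other, so the fall of a single member is uncertain.

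Part of the effector Treg list rose. Of 27 genes 11 rose and 0 fell, with a median difference of 1.53; 6 rose without fresh replicate 2, and 15 without the array that stands apart. Besides Ccr8, the inhibitory receptor Lag3 stood at 9.65 and 10.51 in activated cells, against 7.94 and 7.51 in fresh cells (log2 difference 2.36, SE 0.25, adjusted p = 9.34e-05). Tnfrsf9, the costimulatory receptor 4-1BB, stood at 12.82 and 12.60 in activated cells, against 10.81 and 10.23 in fresh cells (log2 difference 2.19, SE 0.32, adjusted p = 0.000842). Icos, which was sorted against, stood at 11.63 and 11.86 in activated cells, against 10.59 and 10.40 in fresh cells (log2 difference 1.25, SE 0.37, adjusted p = 0.0406). The transcription factors Batf and Irf4, which act together in effector Treg, rose by 2.06 and 1.53, and Id2 by 2.19. Havcr2, the receptor TIM-3, and Tigit rose by 2.91 and 2.54. Both calls were lost without activated replicate 2 or fresh replicate 2, and that of Havcr2 also without fresh replicate 1. Lgals3, galectin-3, rose by 1.76, a call lost without activated replicate 1 or fresh replicate 2.

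Granzyme and cytokine genes differed between the activated arrays. Gzmb, granzyme B, had 10.24 and 12.81 in activated cells and 8.97 and 5.21 in fresh cells (log2 difference 4.44, SE 1.05, adjusted p = 0.0145). Its difference was 2.56 without fresh replicate 2 and 3.16 without activated replicate 2, with the call lost in both cases and in the fit of the 4 arrays alone. Gzma had 7.52 and 10.85 in activated cells and 7.91 and 5.16 in fresh cells (adjusted p = 0.104). The granzyme inhibitors Serpinb6b and Serpinb9 rose by 2.33 and 2.04. Of 25 suppression and cytolysis genes 5 rose and 1 fell, or 9 and 2 without the array that stands apart, and 3 rose without fresh replicate 2. The 5 and 1 of the fit with all arrays were 20% and 4% of that list, beside 8.65% and 7.59% of all genes. Il10, the suppressive cytokine, had 6.97 and 9.26 in activated cells and 4.19 and 4.86 in fresh cells (adjusted p = 0.0687), and it did not pass. Its activated arrays lay above its fresh arrays, as did those of 21.9% of all genes. Of 21 cytokine genes 2 rose, Il21 and Il24 (9.52%), and 1 fell, Ltb, which encodes lymphotoxin beta, by 1.30 (4.76%). Of all genes 8.65% rose and 7.59% fell. Il24, of the IL-10 family, had 6.99 and 9.16 in activated cells and a mean of 4.95 in fresh cells (log2 difference 3.12, SE 0.58, adjusted p = 0.00356), or 2.04 without activated replicate 2, and its call was lost when the 4 arrays were fitted alone (adjusted p = 0.0732). Il21 had 6.21 and 9.60 in activated cells and 4.75 and 4.65 in fresh cells, and its call was lost without activated replicate 2 (log2 difference 1.51) or either fresh array. Without the array that stands apart 8 cytokine genes rose, and without activated replicate 2 only 1.

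Marker genes of other cells were read beside these results. Of 12 CD8 T and NK cell markers 0 rose and 0 fell, but 2 rose without activated replicate 1 and 1 fell without the array that stands apart. Their summed level was 71.0 and 79.3 in activated cells and 72.2 and 68.1 in fresh cells. Replicate 2 of the activated cells was the highest of the 4 for Nkg7 (11.94) and Klrd1 (8.33), while Cd8a, Ncr1 and Klrb1c lay between 4.06 and 6.27 on all 4 arrays. Of 10 markers of activated conventional CD4 T cells 2 rose (20%, beside 8.65% of all genes), Lif by 3.49 and Il21. Their list had summed levels of 71.0 and 78.1 in activated cells and 63.5 and 63.3 in fresh cells. Without activated replicate 2 only 1 of the 10 rose. Il2, the cytokine that such cells make and Treg do not, had 6.56 and 5.87 in activated cells and 6.35 and 6.36 in fresh cells, and Cd40lg had 8.10 and 7.99 in activated cells and 8.03 and 8.22 in fresh cells. Ifng had 6.83 and 10.16 in activated cells and 6.80 and 6.73 in fresh cells. The part of these cells in the granzyme and cytokine differences was not tested.

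Few markers of the remaining cell types changed. Of 9 B cell markers 1 rose, the transcription factor Ebf1, by 3.37 (2.43 without activated replicate 2), while Cd79a, Ms4a1 and Cr2 lay between 4.24 and 5.72 on all 4 arrays. The summed level of the B cell list was 51.6 and 51.1 in activated cells and 51.6 and 50.4 in fresh cells. Of 22 myeloid and dendritic markers 0 rose and 1 fell, though 1 rose without the array that stands apart and 3 fell without fresh CD103 single-positive replicate 1. The 1 that fell was Cybb, a subunit of the phagocyte oxidase, with 6.05 and 5.32 in activated cells and 8.48 and 8.11 in fresh cells (log2 difference -2.62, SE 0.24, adjusted p = 3.43e-05). The summed level of that list was 125 and 124 in activated cells and 136 and 128 in fresh cells. Of 7 erythroid and platelet markers Gp9 fell by 0.56, a call lost with any 1 of the 4 arrays left out, with sums of 40.5 and 39.6 in activated cells and 41.0 in each fresh array. Of 8 T cell markers Cd3g fell by 0.71 and 0 rose, with sums of 92.5 and 92.6 in activated cells and 94.4 and 92.8 in fresh cells.

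Of 21 Treg identity genes 3 rose and 2 fell, shares near the 8.65% and 7.59% of all genes. Without the array that stands apart 8 rose and 5 fell, and without activated replicate 2 only 1 fell. Tigit, Tnfrsf9 and Tnfrsf4, the receptor OX40, rose, the last by 0.95. Nt5e, the ectoenzyme CD73 that makes adenosine, stood at 9.23 and 8.16 in activated cells, against 11.18 and 11.23 in fresh cells (log2 difference -2.50, SE 0.47, adjusted p = 0.00382). Nrp1, neuropilin-1, stood at 8.97 and 7.81 in activated cells, against 10.74 and 10.70 in fresh cells (log2 difference -2.32, SE 0.58, adjusted p = 0.018), and its call was lost without activated replicate 2 or either fresh array. Foxp3 differed by -0.36, Ikzf2, which encodes Helios, by -0.68 and Ctla4 by 0.59, and none of these 3 passed. Of 16 genes of IL-2 and STAT5 signalling Lif alone rose, or 3 genes without the array that stands apart. Lif stood at 9.81 and 10.11 in activated cells, against a mean of 6.47 in fresh cells (log2 difference 3.49, SE 0.22, adjusted p = 1.71e-06). As 1 gene of 16 it made 6.25% of that list, beside the 8.65% of all genes that rose.

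Of 13 helper lineage regulators 5 rose (38.5%), 1 fell (7.69%) and 7 did not pass, beside 8.65% of all genes that rose and 7.59% that fell. Without fresh replicate 2 only 3 rose, and without the array that stands apart 2 fell. Tbx21, the T-bet factor of type 1 cells, had 9.10 and 10.85 in activated cells and 7.27 and 6.80 in fresh cells (log2 difference 2.94, SE 0.58, adjusted p = 0.0049), or 2.06 without activated replicate 2, and its call was lost when the 4 arrays were fitted alone (adjusted p = 0.0572). Nfil3, which restrains and directs lymphoid lineages, stood at 9.64 and 10.44 in activated cells, against 6.78 and 6.88 in fresh cells (log2 difference 3.21, SE 0.49, adjusted p = 0.00103). Bhlhe40, a repressor of Il10 in T cells, rose by 3.21, or 4.03 without fresh replicate 1 and 2.38 without fresh replicate 2. Runx3 rose by 1.38 and Zbtb32 by 1.89. Zbtb7b, the ThPOK factor of CD4 cells, fell by 0.61. The Zbtb7b call was lost with any 1 of the 4 arrays left out, and that of Zbtb32 without activated replicate 2 or either fresh array.

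Other costimulatory and inhibitory receptors split by gene. Of 33 measured 7 rose (21.2%) and 4 fell (12.1%), beside 8.65% and 7.59% of all genes. The number that rose was 10 without the array that stands apart and 4 without activated replicate 2, and the number that fell was 2 without fresh replicate 1. Tnfrsf8, which encodes CD30, had 10.04 and 11.34 in activated cells and 6.94 and 6.80 in fresh cells (log2 difference 3.82, SE 0.80, adjusted p = 0.00727), a call lost without activated replicate 2 (log2 difference 3.17). Cd226, which competes with TIGIT for its ligand, stood at 7.89 and 7.18 in activated cells, against 9.81 and 10.05 in fresh cells (log2 difference -2.40, SE 0.43, adjusted p = 0.00308). Its relative Cd96 fell by 1.55, Vsir, the VISTA receptor, by 1.13 and the death-domain receptor Tnfrsf25 by 1.10. The Vsir and Tnfrsf25 calls were each lost when 1 of 2 arrays was left out.

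Among genes of T cell receptor and TGF-beta signalling more fell than rose. The shares that fell were 31.8% and 41.2%, while among all genes 7.59% fell and 8.65% rose. Of 22 components of T cell receptor signalling 7 fell and 0 rose, by small amounts: Rasgrp1, which activates Ras, by 1.08, the kinases Fyn and Prkcq by 0.94 and 0.84, the phosphatase Ubash3a by 0.78, Cd3g by 0.71, Plcg1 by 0.65 and the adaptor Lat by 0.54. Of 27 immediate early genes 6 rose (22.2%) and 3 fell (11.1%). Fosl2, an AP-1 subunit, rose by 2.55, or 1.92 without activated replicate 2, the phosphatase Dusp4 by 2.08 and the orphan receptor Nr4a2 by 1.90, while Cd69, which holds S1PR1 inside the cell, fell by 0.84 and the NF-kB regulators Nfkbid and Nfkbiz by 1.04 and 1.05. The calls of Dusp4 and Nfkbiz were each lost in at least 1 fit without an array. Of 17 TGF-beta pathway genes 7 fell and 2 rose (11.8%). The inhibitor Smad7 stood at 8.68 and 8.57 in activated cells, against 10.19 and 10.22 in fresh cells (log2 difference -1.57, SE 0.15, adjusted p = 3.4e-05). The receptor chain Tgfbr2 fell by 1.39, the corepressor Ski by 0.96 and the mediator Smad3 by 0.90. The 2 that rose, the protease Furin by 1.82 and the coreceptor Eng by 0.66, lost their calls without activated replicate 2 or fresh replicate 2, and Eng also without activated replicate 1. Without the array that stands apart 4 of the 17 rose.

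Survival genes and small GTPases make up 2 short lists. Of 18 genes of the Bcl2 family and death receptors 1 rose, Bak1, a pore-forming killer, by 1.21, and 1 fell, the survival factor Mcl1, by 0.91. These shares of 5.56% lie below those of all genes, and without the array that stands apart 3 rose and 2 fell. Of 8 Gimap genes, a cluster of lymphocyte GTPases whose members resemble each other, 2 fell (25%, beside 7.59% of all genes). They were Gimap3, by 1.35, and Gimap8, by 0.77.

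The design allows activated double-negative cells to be set against fresh double-positive cells, the subset that carries effector markers without culture. In this comparison 1574 genes were higher (7.89%) and 1478 lower (7.41%) in activated double-negative cells, 3052 in all (15.3%). Of the 27 effector Treg genes 10 were lower and 1 was higher, and the mean of activated cells lay below that of fresh double-positive cells for 20 of 27. Fresh double-negative cells lay below fresh double-positive cells for 27 of 27. Itgae and Icos, which encode the sort markers, are in this list, so their direction between the fresh subsets follows from the sort. The list was also chosen with earlier results of these data known. Klrg1, an inhibitory receptor of differentiated T cells, stood at 5.67 and 5.35 in activated double-negative cells, against 11.83 and 12.03 in fresh double-positive cells (log2 difference -6.42, SE 1.02, adjusted p = 0.0015), and at 5.80 and 5.30 in fresh double-negative cells. Itgae was lower by 4.73, Fgl2, a secreted suppressive protein, by 4.51, S100a4 by 4.01 and the chemokine receptor Cxcr6 by 3.17. The 1 gene that was higher, Tnfrsf9, stood at 12.82 and 12.60 in activated double-negative cells, against 11.60 and 11.70 in fresh double-positive cells (log2 difference 1.07, adjusted p = 0.0468).

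Outside the effector list, the genes highest in activated double-negative over fresh double-positive cells were those of the activation increase. Il12rb2 was higher by 6.34, Ak4 by 5.27, Cyp11a1 by 5.23, Akr1c18 by 5.03 and Fads2 by 4.14. Those lowest, besides Klrg1, Itgae and Fgl2, were Ccr9 at -5.32 and Il17rb, the receptor for IL-25, at -4.58. Il17rb stood at 6.41 and 6.19 in activated double-negative cells, against 10.97 and 10.79 in fresh double-positive cells (SE 0.37, adjusted p = 2.32e-05). Of 31 chemokine and homing receptors 18 were lower and 1, Ccr7, was higher, by 1.35. All 34 mitosis genes were higher. The count of genes that differed was 1879 without fresh double-positive replicate 1 and 1762 when the 4 arrays of the comparison were fitted alone.

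**Figure D4:**
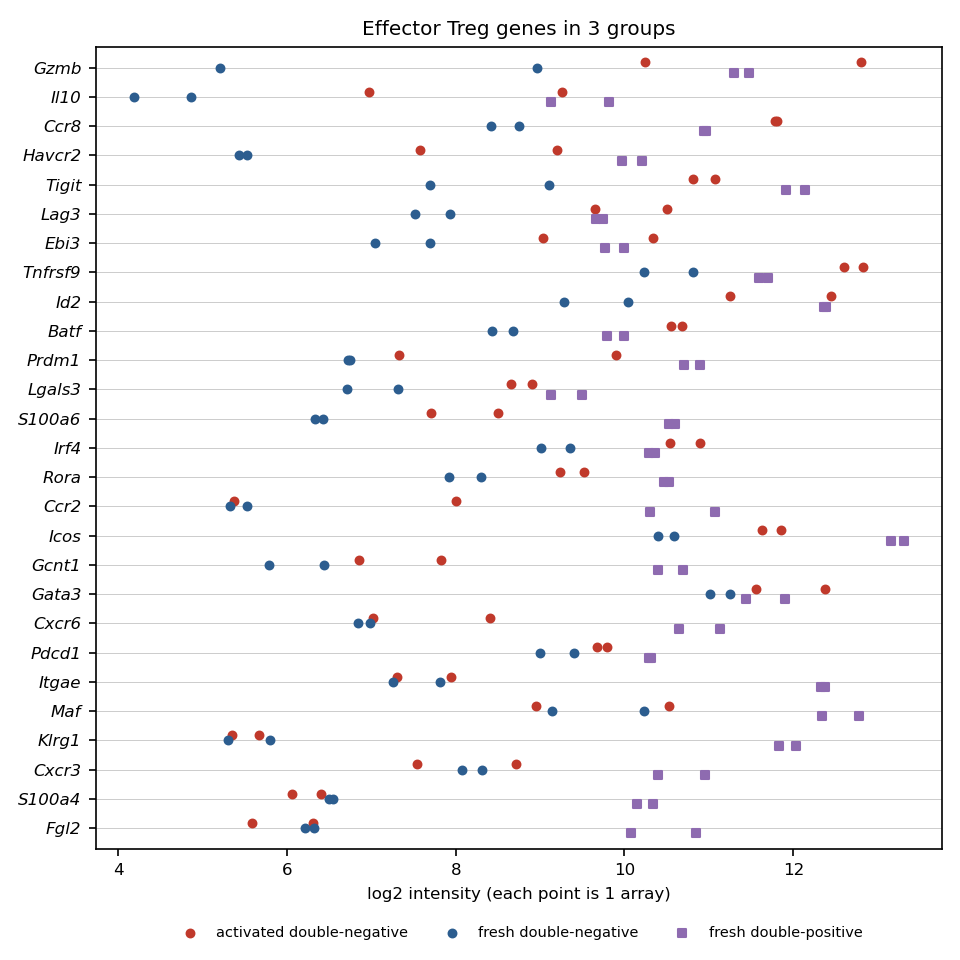
Log2 intensity of the 27 measured effector Treg genes on each array of activated double-negative (red circles, upper in each row), fresh double-negative (blue circles) and fresh double-positive cells (violet squares, lower in each row), ordered by the activation difference. For Ccr8, Lag3, Tnfrsf9, Batf and Irf4 the red points reach or pass the violet ones, and for Klrg1, Itgae, S100a4 and Fgl2 they stay with the blue ones.

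The activation effect of double-negative cells was tested against that of the other subsets as a difference of differences. Against the mean of the other 3 subsets 153 genes (0.767%) had a higher difference in double-negative cells and 26 (0.13%) a lower one, 179 in all (0.898%). Against double-positive cells 170 were higher (0.853%) and 23 lower (0.115%), 193 in all (0.968%). In the test against CD103 single-positive cells, less than a share of 0.05 of the 19938 genes had an unadjusted p below 0.05 by limma. Against CD103 single-positive cells 0 genes passed by limma (0%), with 631 at an unadjusted p below 0.05, and 5 passed without the array that stands apart. Without that array the other counts were 216 and 304. Leaving out fresh double-negative replicate 2 gave 56 against the mean of the 3 subsets and 91 against double-positive cells. Without fresh double-positive replicate 2 the count against double-positive cells was 87.

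Division genes had the largest differences that passed. Of the 34 mitosis genes 28 had a higher difference than the mean of the other 3 subsets and 29 a higher one than double-positive cells. Mki67 gave the largest, 3.00 against the mean of the 3 (SE 0.24, adjusted p = 0.000572) and 3.99 against double-positive cells. Its level on the activated arrays was 11.74 and 11.60 in double-negative cells, 11.57 and 11.61 in those with CD103 alone, 11.55 and 11.37 in those with ICOS alone and 11.51 and 11.50 in those with both. On the fresh arrays it was 6.91 and 6.22 in double-negative cells, 7.29 and 6.81 in those with CD103 alone, 10.73 and 10.85 in those with ICOS alone and 10.28 and 10.51 in those with both. The activated levels of Mki67 were close in all 4 subsets, while the fresh levels of both ICOS-negative subsets lay below those of both ICOS-positive ones. Ccna2 showed the same order, with 6.30 and 6.07 in fresh double-negative cells and 9.36 and 9.52 in fresh double-positive cells. Of the DNA replication list 9 of 38 had a higher difference than the mean of the 3 subsets and 8 of 38 than double-positive cells.

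Among genes lower in this test that passed, S1pr1 came first. Its difference was lower by 2.06 than the mean of the other 3 (SE 0.19, adjusted p = 0.00123). Fresh double-negative cells had the highest S1pr1 of the series, at 11.57 and 11.66, and activated double-negative replicate 2 the lowest, at 9.16. Ifi213 was lower than the mean of the other 3 by 1.99 (SE 0.20, adjusted p = 0.002). ICOS single-positive cells had it at 9.31 and 9.47 activated and at 8.76 and 8.92 fresh, a difference of 0.55. The Ifi213 difference was -2.85 where both markers were carried and -3.62 where only CD103 was, against -3.96 for double-negative Treg. Tested singly, neither of these subsets differed from double-negative Treg in its Ifi213 effect (adjusted p = 0.0657 by limma against double-positive cells). Against the mean of the other 3, Chil5, a chitinase-like protein, was lower by 1.81. Sorcs2, a sorting receptor, was lower by 1.70 and Cd55, which protects cells from complement, by 1.57. Each of these 3 calls was lost in at least 1 fit without a double-negative array. Against double-positive cells the lowest values were those of Lum, which encodes an extracellular matrix proteoglycan, at -3.49 and Arhgap20, a GTPase-activating protein, at -2.64. Lum stood at 8.38 and 7.96 in activated double-positive cells and at 4.34 and 5.11 in activated double-negative cells, where it did not pass against fresh cells (4.04 and 4.06). The Arhgap20 call, at adjusted p = 0.0477, was lost in most fits without 1 array.

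Il12rb2, the largest increase in double-negative cells, did not pass the test of a difference between subsets. Its difference was 5.90 in double-negative cells and 6.63 in cells with CD103 alone, 3.78 in cells with ICOS alone and 5.33 in cells with both, and the difference from the mean of the other 3, 0.66 (SE 0.58, adjusted p = 0.694), did not pass. Of the 27 effector Treg genes 1, Ccr8, had a higher difference than the mean of the 3 subsets, by 2.02.

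**Figure D5:**
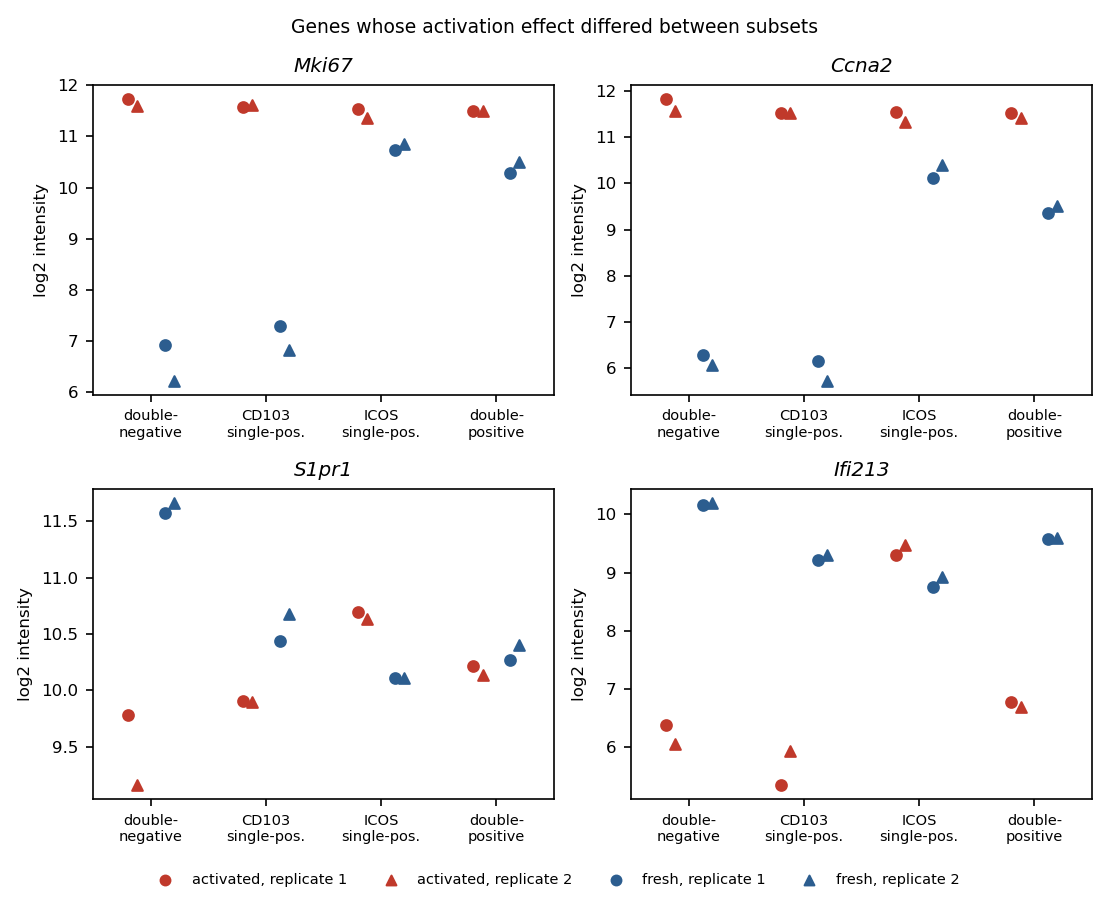
Log2 intensity of Mki67, Ccna2, S1pr1 and Ifi213 on the 16 arrays, by subset, with activated cells in red at the left of each pair, fresh cells in blue at the right, replicate 1 as circles and replicate 2 as triangles; vertical axes differ and do not start at 0. The red Mki67 points lie between 11.37 and 11.74 in all 4 subsets, while the blue ones lie between 6.22 and 7.29 in double-negative and CD103 single-positive cells and between 10.28 and 10.85 in the other 2.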

How the data were processed

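Total RNA was measured on 16 Affymetrix arrays, 2 per group. The deposited values are log2 intensities for 35556 probe sets, made by the authors with RMA and the affy package, per the submitters' processing notes. Tool versions: not given in the sources used here. As usually run, RMA gives all arrays 1 distribution of values, so a change in total RNA per cell would not show. Arrays carry no read depth, and their number limits the precision.

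Of the probe sets 21789 have exactly 1 gene symbol in the platform annotation, 1621 several and 12146 none. One-symbol probe sets were used, the brightest over the 16 arrays standing for each of 19938 genes, with no filter on dim genes. limma 3.58.1 in R 4.3.3 was fitted to all 16 arrays with 8 group means (8 residual degrees of freedom, prior 2.90), with Benjamini-Hochberg adjustment over all genes in each of 5 comparisons and calls at adjusted p below 0.05. The steps were tested on simulated data.

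The genes named are the 15 largest increases and decreases with the same sign in each replicate, 5 per direction in the other comparisons and 4 per direction of each gene list. The largest changes leave out predicted genes, small RNAs, histones and antigen receptor segments. Other list members are given as examples. The subset, the 35 lists (719 genes, 680 measured) and the rules were chosen with earlier results of these data known. Lists are described by counts and medians, with no set test. Promoters are RefSeq's. Alternatives were the arrays compared alone, leaving out each array, a replicate block, array weights, an intensity trend, quantile normalization again, removal of dim genes and averaged probe sets. Intensities include background, so folds of dim genes are understated.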

Additional observations from a re-analysis of the deposited data

Results flagged for a closer look

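The activation effect of double-negative Treg differed from the mean effect in the other 3 subsets for 179 genes, by the test of the difference itself. The largest higher differences were those of Mki67 (3.00), Kif11 (2.66), Ccna2 (2.59), Bub1 (2.59) and Top2a (2.47). The largest lower ones were those of S1pr1 (-2.06), Ifi213 (-1.99), Chil5 (-1.81), Sorcs2 (-1.70) and Cd55 (-1.57). Against CD103 single-positive Treg alone 0 genes passed by limma. Over the 34 mitosis genes the median difference in effect was 0.13 against that subset and 1.65 against the mean of the 3.

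Against double-positive Treg alone the effect differed for 193 genes. The same 5 division genes led, with Mki67 at 3.99, Kif11 at 3.53, Ccna2 at 3.49, Bub1 at 3.34 and Top2a at 3.18. The lowest were Lum (-3.49), Arhgap20 (-2.64), Sorcs2 (-2.37), Gsta4 (-2.22), a glutathione transferase, and S1pr1 (-1.99). The comparisons of this section share the 4 double-negative arrays.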

How the results depend on the processing

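Of the 140 genes named for activated against fresh double-negative cells, 93 kept their call in all of 23 distinct alternatives (16 that left out 1 array and 7 others), 47 lost it in at least 1 and 0 changed sign. Fitted on the arrays compared alone, 1962 genes changed in activated against fresh cells and 1762 differed from fresh double-positive cells. Without activated ICOS single-positive replicate 2, 304 genes differed in effect from double-positive and 5 from CD103 single-positive cells. With quantile normalization applied again, 1 gene differed from CD103 single-positive cells. With the replicate block, 371 genes differed from the mean of the other 3 subsets and 425 from double-positive cells, and 4713 changed with activation. No label says what a replicate number marks, and it was not taken as a pairing. Even so, deviations of arrays with the same number went together, with r above 0.1 in 27 of 28 pairs of groups. The r ran from -0.016 to 0.75 and was 0.22 between the double-negative groups. The main fit has no replicate block, so it leaves what these arrays share in its spread. With 1 array left out, the counts ran over 2062 to 3437 (activated against fresh), 56 to 342 (mean of the other 3 subsets), 87 to 304 (double-positive), 0 to 7 (CD103 single-positive) and 1879 to 3318 (against fresh double-positive). A lone array was assumed to vary like the other groups. The causes were not tested. The number of arrays limits the precision, and folds of dim genes are understated.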

Other observations

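Further genes are given here as values; they were chosen after their values were seen. In activated against fresh double-negative cells, Tlr7, a receptor for single-stranded RNA, fell by 2.65 (adjusted p = 0.000226 by limma) and Nod1, a sensor of bacterial peptidoglycan, fell by 2.76 (adjusted p = 2.96e-05). The helicase Ddx60 fell by 2.81 and Samd9l fell by 2.69. Outside the mitosis list, Knl1 of the kinetochore rose by 4.69, Mastl, the Greatwall kinase, by 4.45 and Esco2, which links sister chromatids, by 4.32.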
